A study of Mus musculus with 12 samples.

Results

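Potassium channel and HCN channel subunits were measured in laser-captured neurons of the mouse entorhinal cortex, by every array probe whose gene name in the scanner files begins with Kcn or names an HCN subunit. The array carries 130 such probes for 88 gene names, among 41174 probes in all. Of these, 41 probes for 36 gene names were bright enough to be tested, among 12987 tested probes of the whole array. The RNA came from neurons of the medial (MEC) and the lateral (LEC) entorhinal cortex of female C57BL/6 mice aged 2 months. Mutants were Naglu-/-, a model of Sanfilippo B disease without the lysosomal enzyme that trims N-acetylglucosamine off heparan sulfate, and controls were Naglu+/-, so that both genotypes carry at least 1 disrupted allele. Mutants and controls formed 3 pairs per region. A pair shared 2 arrays of opposite dye orientation, which makes 12 arrays. Per the labels, 500 neurons per region were captured by laser from Nissl-stained 12 µm sections, and amplified RNA was hybridised. A level is given below as the mean log2 intensity of both dyes, so it averages the mutant and the control of a pair. It has a floor near 5.64, the log2 of the offset that was added to every spot.

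Potassium channels let potassium leave a neuron and so return its membrane to rest after a spike. Kv channels open on depolarisation, inward rectifiers and tandem-pore (K2P) channels set the resting potential, and calcium-activated channels follow the calcium that enters with each spike. HCN channels are relatives of the Kv family that open on hyperpolarisation and carry a mixed inward current; in the MEC this current is known for the sag and the subthreshold oscillations of layer II stellate cells. Many of these channels are built from several pore subunits and from auxiliary proteins that alter their gating or transport.

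Cy3 was the brighter dye, with array medians from 67 to 92.5 and 48.2% to 67.9% of spots well above background. For Cy5 the medians were 44.4 to 54.9 and the share 14.8% to 30.4%. Of the scanner files labelled LEC, 5 matched another LEC sample's column of the authors' value table, and in replicate 2 of both regions that table's sign was opposite to the labelled dyes. Arrays were assigned and turned by the table; the level comparison of MEC with LEC does not use that sign. All MEC arrays were scanned on 1 day and all LEC arrays on another, so region and scan day cannot be told apart. In captured material, fewer cells of a type and less RNA per cell cannot be told apart either. Of 4 tested excitatory neuron markers 1 was higher and 1 lower in MEC, where 11.1% of all tested probes were higher and 13.2% lower. Neurod6 stood at a log2 difference of 1.16 (adjusted p = 0.0005) and Nrgn at −1.16 (adjusted p = 0.010), both with the same sign under every scaling. Camk2a did not pass, at 0.17 (adjusted p = 0.093, and −0.36 with each array scaled to its 75th percentile). Of 6 tested entorhinal and layer markers 3 were higher and 1 lower, against 1 higher and 1 lower with the 75th percentile and 1 higher and 3 lower without scaling. Lef1 stood at 1.47, Wfs1 at 0.98 and Calb1 at −0.93. Markers of inhibitory neurons and of glia were also measured, and their values stand beside the channels below.

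Whether a channel class could be measured at all differed widely. The filter kept a probe where, for some region and genotype, 4 or more of the 6 available readings stood well above background. Of the 8 Kv1 probes 6 passed it, and of the 9 Kv3 probes 5 passed. Of the 11 probes for the EAG, ERG and ELK genes (Kcnh), 0 passed: their readings above background were 0 to 12 of 12 in Cy3 and 0 to 5 of 12 in Cy5. Of 7 KCNQ probes, some of them for M-current subunits, only 1 for Kcnq1 passed. The Kcnq3 probe read above background in 11 of 12 Cy3 readings and in 0 of 12 Cy5 readings. Kcnma1, the pore of the BK channel, had 1 such reading of 24. Kcna2, a Kv1 subunit of axons, had 7 and Hcn2 had 10, all in Cy3. In all, 23 of the 89 untested probes had 10 or more Cy3 readings above background, so a miss in the filter was often a miss in the dimmer dye. These genes have no measured difference here, which says nothing of whether the neurons express them.

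The first comparison set MEC against LEC. Of the 41 tested channel probes, 16 passed limma's test at an adjusted p of 0.05 over all tested probes, 11 higher and 5 lower in MEC, for 14 gene names. The higher ones include a probe named Kcna6 that lies on the strand opposite to the gene. Over the whole array 24.3% of tested probes passed, 11.1% higher and 13.2% lower, against 39.0% of the channel probes. This excess of channel probes was seen with quantile scaling and not with the other scalings below. The share that passed was higher among brighter probes. Of 14 channel probes above background in all 24 readings 9 passed, where 38.9% of all such probes did. Of the 27 with fewer readings 7 passed, where 13.3% of all such probes did. These 7 include Kcna5, Kcns3 and the opposite-strand Kcna6 probe, which passed the filter only through the region where they are high. The share among dimmer channel probes is therefore no support apart from those readings. The pairs of MEC and LEC did not overlap at 21 of 41 channel probes, 14 with MEC above and 7 with MEC below, while this held for 43% of all tested probes (19.2% above and 23.7% below). The median difference was 0.050 over the channel probes and −0.016 over all tested probes, on the log2 scale.

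Directions depended in part on how the arrays were scaled to each other. With each array scaled to its 75th percentile, 11 channel probes passed, 4 higher and 7 lower in MEC, and with no scaling 21 passed, 1 higher and 20 lower. The same scalings moved all probes. With the 75th percentile 3.8% passed higher and 34.5% lower. With no scaling 0.678% passed higher and 74.5% lower, and the median of all probes was −0.26. In both cases the channel share that passed lay below that of the array, so the channel excess given above rests on the quantile scaling. Under all 3 treatments 12 of the 16 probes kept the sign of their difference, 7 higher and 5 lower in MEC, and 6 of these passed each time (Kcns3 higher; Kcna5, Kcna6, Kcnf1, Kcnmb4 and 1 of 2 Kcnj9 probes lower). Kcna1, the other Kcnj9 probe, Kcnk1 and Kcnn2 turned sign under at least 1 of them. Measured from the median of all probes, 15 of the 16 kept their sign, the exception being that second Kcnj9 probe. Without replicate 2 of both regions 8 channel probes passed, 7 of them among the 16. These were Kcna5, Kcna6, Kcns3, Kcnc1, Kcnd2, Kcnip4 and Kcnj10.

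**Figure D1:**
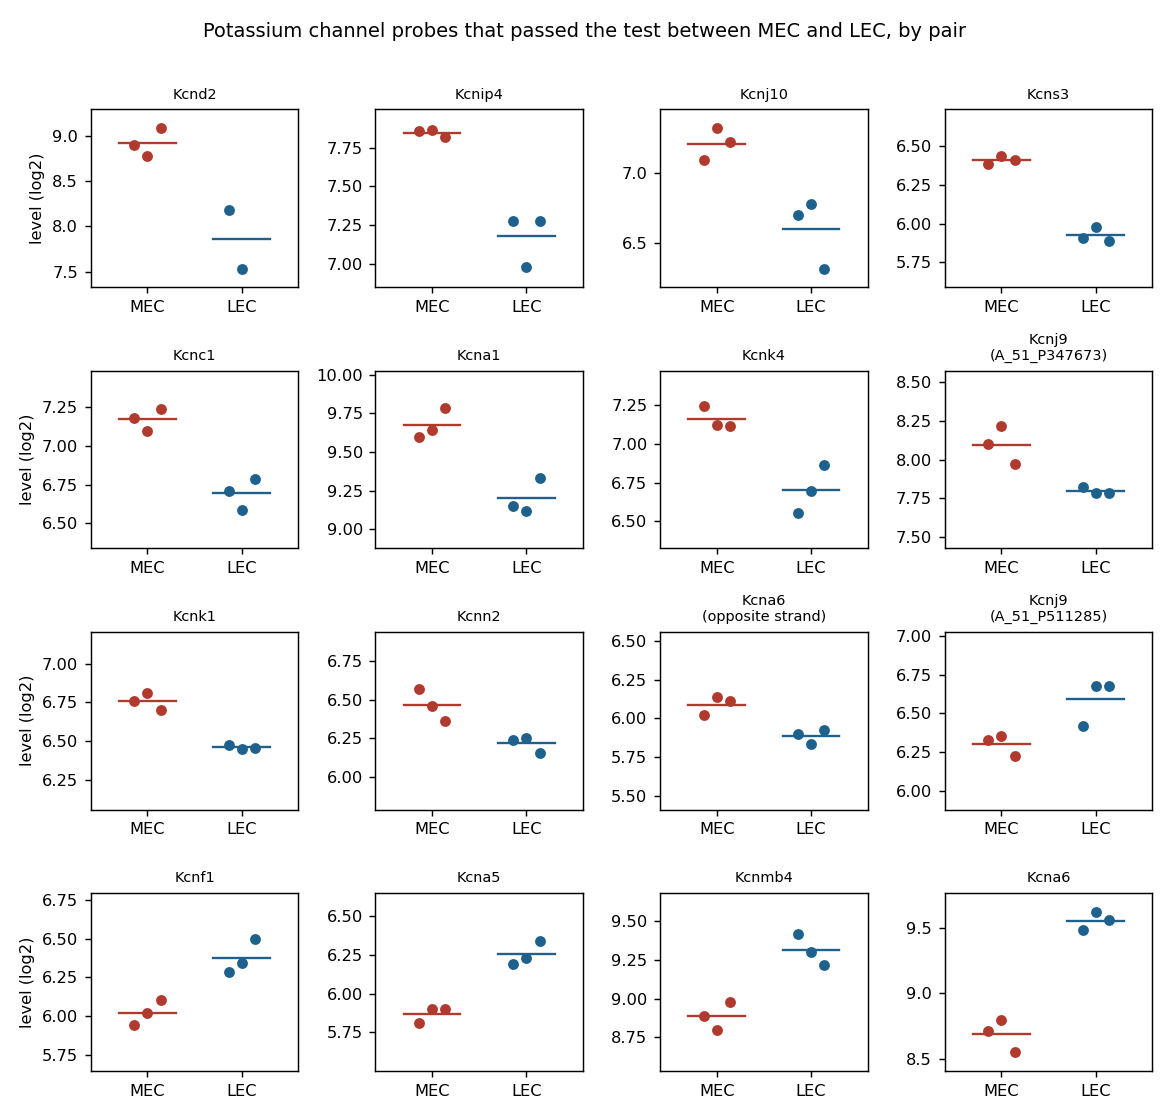
Level (log2 intensity, mean of both dyes, y axis) of the 16 channel probes that passed the test, in the 3 MEC pairs (red, left) and the 3 LEC pairs (blue, right), ordered by their difference. Each point is a pair and each line the mean; each panel has its own y axis. In every panel the pairs of the regions lie apart, from Kcnd2 at the top left (8.92 in MEC, 7.86 in LEC) to Kcna6 at the bottom right (8.69 in MEC, 9.55 in LEC). Kcna1, Kcnk1, Kcnn2 and Kcnj9 (A_51_P347673) turn sign with other scalings.

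Kv4 channels carry the A-type current of dendrites, which opens below spike threshold and inactivates quickly, and Kcnd2 encodes their main pore in cortical pyramidal cells. Kcnd2 read 8.90, 8.78 and 9.08 in the MEC pairs, against 8.18 and 7.53 in LEC pairs 1 and 2 (mm8, chr6:21679570-21679629). In LEC pair 3 a spot was marked as an outlier by the scanner software, and the fit left that pair out. All MEC pairs lay above both LEC pairs. The log2 difference was 1.06 (SE 0.18, adjusted p = 0.0069), or 2.09-fold, the largest rise among the channel probes. With the marked spot kept it was 0.98 (adjusted p = 0.0071). It was 0.59 with the 75th percentile (adjusted p = 0.060) and 0.42 without scaling (adjusted p = 0.090), and missed the threshold in both. The other tested Kv4 pore, Kcnd3, lay near background, with 5.89, 5.94 and 5.87 in MEC against 6.07, 6.01 and 6.01 in LEC (−0.13, adjusted p = 0.078).

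Kv4 pores are joined by cytoplasmic KChIP proteins and by the membrane proteins Dpp6 and Dpp10, which bring them to the surface and speed their gating. Kcnip4, which encodes KChIP4, read 7.86, 7.86 and 7.82 in MEC, against 7.28, 6.98 and 7.28 in LEC (mm8, chr5:48677898-48677957). The LEC pairs all lay below the narrow MEC range, and the difference was 0.67 (SE 0.081, adjusted p = 0.0016), or 1.59-fold. It was 0.30 (adjusted p = 0.070) with the 75th percentile. Without scaling it was 0.14 (adjusted p = 0.28). Dpp6 was also higher in MEC at 0.32 (adjusted p = 0.0081), and Dpp10 at 0.36 (adjusted p = 0.0072), but without scaling both turned to −0.15 and −0.14. Kcnip3 did not pass, at 0.017 (adjusted p = 0.91), and the probes for Kcnip1 and Kcnip2 were below the filter.

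Kv1 channels sit on axons and near the spike initiation zone, where they damp repetitive firing; their pores combine 4 at a time, often from different genes. Kcna6 showed the largest fall of any channel probe. Its sense-strand probe read 8.71, 8.80 and 8.55 in MEC, against 9.48, 9.62 and 9.56 in LEC (mm8, chr6:126674025-126674084). The regions did not overlap. The difference was −0.87 (SE 0.071, adjusted p = 0.0005), 1.82-fold higher in LEC, and it kept its sign and passed under all 18 alternatives tried, from −0.80 to −1.52. A further probe that carries the name Kcna6 lies on the opposite strand (mm8, chr6:126707148-126707207). It was dim, at 6.02, 6.13 and 6.11 in MEC against 5.90, 5.83 and 5.93 in LEC (0.20, adjusted p = 0.025). It passed in 8 of 16 alternatives, and it does not measure the channel's own strand. This probe passed the filter through MEC alone, where it is high, so its p-value is no support apart from those readings.

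Kcna1 is the founding Kv1 pore and the gene of an episodic ataxia in humans. It read 9.60, 9.64 and 9.78 in MEC, against 9.15, 9.12 and 9.33 in LEC (mm8, chr6:126607328-126607387). The regions did not overlap, and the difference was 0.47 (SE 0.073, adjusted p = 0.0038), or 1.39-fold. With the 75th percentile it was −0.048 and without scaling −0.21, so its direction rests on the quantile scaling. Kcna5, which repolarises atrial muscle and vessels, was seen in LEC alone: 0 of 12 MEC readings and 12 of 12 LEC readings were well above background. Its levels were 5.81, 5.90 and 5.90 in MEC, where they mark a bound, against 6.19, 6.23 and 6.34 in LEC (mm8, chr6:126498174-126498233). It was at least 1.23-fold lower in MEC, the bound being the lowest signal well above background on each MEC array. The measured difference was −0.38 (adjusted p = 0.0029), and it passed under all 18 alternatives. The probe passed the filter through LEC alone, where it is high, so its p-value is no support apart from those readings. Kcna1, Kcna5 and Kcna6 are neighbours on chromosome 6, so the cluster held differences of both signs, with Kcna1's sign open to the scaling. Kcna4 (0.16, adjusted p = 0.19) and the muscle channel gene Kcna7 (0.080, adjusted p = 0.36) did not pass.

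The promoters of Kcnd2 and Kcna6 are shown because these genes had the largest rise and the largest fall in MEC. Each line gives 250 bases before the start of the gene, 5′ to 3′ on the gene's strand, from RefSeq's GRCm38.p6 assembly. Kcnd2 is at chr6:21215096-21215345 on the plus strand and Kcna6 at chr6:126740675-126740924 on the minus strand. Capitals mark the GC box GGGCGG and the cAMP response core TGACG, searched on both strands.
Kcnd2: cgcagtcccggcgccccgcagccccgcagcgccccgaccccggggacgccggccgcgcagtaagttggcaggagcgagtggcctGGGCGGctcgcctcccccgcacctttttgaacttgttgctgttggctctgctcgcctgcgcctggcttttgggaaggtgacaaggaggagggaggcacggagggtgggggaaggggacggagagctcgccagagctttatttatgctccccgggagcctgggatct
Kcna6: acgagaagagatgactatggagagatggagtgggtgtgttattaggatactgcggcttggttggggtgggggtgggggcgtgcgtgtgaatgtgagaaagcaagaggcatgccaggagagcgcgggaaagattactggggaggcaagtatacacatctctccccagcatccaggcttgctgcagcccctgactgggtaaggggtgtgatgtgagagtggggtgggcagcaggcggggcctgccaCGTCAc
The Kcnd2 stretch held 1 GC box, which 32.7% of 32851 RefSeq promoter stretches of this length hold, and no cAMP response core. The Kcna6 stretch held 1 cAMP response core, which 17.8% of them hold, and no GC box. Neither held the TATA box TATAAA, found in 12.4%, nor the E-box CANNTG, found in 66.2%. Their GC content was 68.8% for Kcnd2 and 58.8% for Kcna6, against a median of 52.4%. The arrays do not measure promoter activity, and these matches are a description of the letters.

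Kv3 channels open only at strongly depolarised voltages and close fast, which lets fast-spiking interneurons fire at high rates. Kcnc1 read 7.18, 7.10 and 7.24 in MEC, against 6.71, 6.59 and 6.79 in LEC (mm8, chr7:46306384-46306443). No pair of the regions overlapped, and the difference was 0.48 (SE 0.064, adjusted p = 0.0023), or 1.39-fold. It passed in 17 of 18 alternatives, the exception being no scaling, where it was 0.049. The other tested Kv3 probes did not pass. Kcnc2 stood at 0.061 (adjusted p = 0.35) and 0.050 (adjusted p = 0.64) at its probes, and Kcnc4 at −0.011 (adjusted p = 0.90). Silent Kv subunits do not form channels alone but modify Kv2 pores. Among them Kcns3, which in human cortex is enriched in parvalbumin interneurons, read 6.38, 6.44 and 6.41 in MEC, against 5.91, 5.98 and 5.89 in LEC (mm8, chr12:11117253-11117312). Well above background were 10 of 12 MEC readings and 2 of 12 LEC readings. The difference was 0.49 (SE 0.046, adjusted p = 0.0007), and it passed under all 18 alternatives. The probe passed the filter through MEC alone, where it is high, so its p-value is no support apart from those readings. With most LEC readings not well above background, the size of the difference is not given as a fold. The size of such dim probes is compressed by the offset: on the scanner software's processed signals it was 1.71. Kcnf1 went the other way, with 5.94, 6.02 and 6.10 in MEC against 6.29, 6.34 and 6.50 in LEC (mm8, chr12:17198201-17198260). Its difference was −0.35 (SE 0.069, adjusted p = 0.0088), or −1.10 on processed signals. The silent subunit Kcng3, measured without MEC pair 3, did not pass (0.0046, adjusted p = 0.96); with the marked spot kept it was 0.71 (adjusted p = 0.36).

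Markers of inhibitory neurons did not move one way. Of 7 tested, 3 were higher, 1 lower and 3 not called in MEC, where 24.3% of all probes passed either way. Pvalb stood at 0.55 (adjusted p = 0.0005) and kept its sign under every scaling, Slc32a1 at 0.43 and Gad1 at 0.31, but these 2 turned to −0.15 and −0.039 without scaling. Sst, the marker of another interneuron type, stood at −0.87 (adjusted p = 0.023). The mean level of the list was 6.59 to 6.81 in the MEC pairs and 6.61 to 6.74 in the LEC pairs. The part that interneurons play in the Kcnc1 and Kcns3 differences was not tested.

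**Figure D2:**
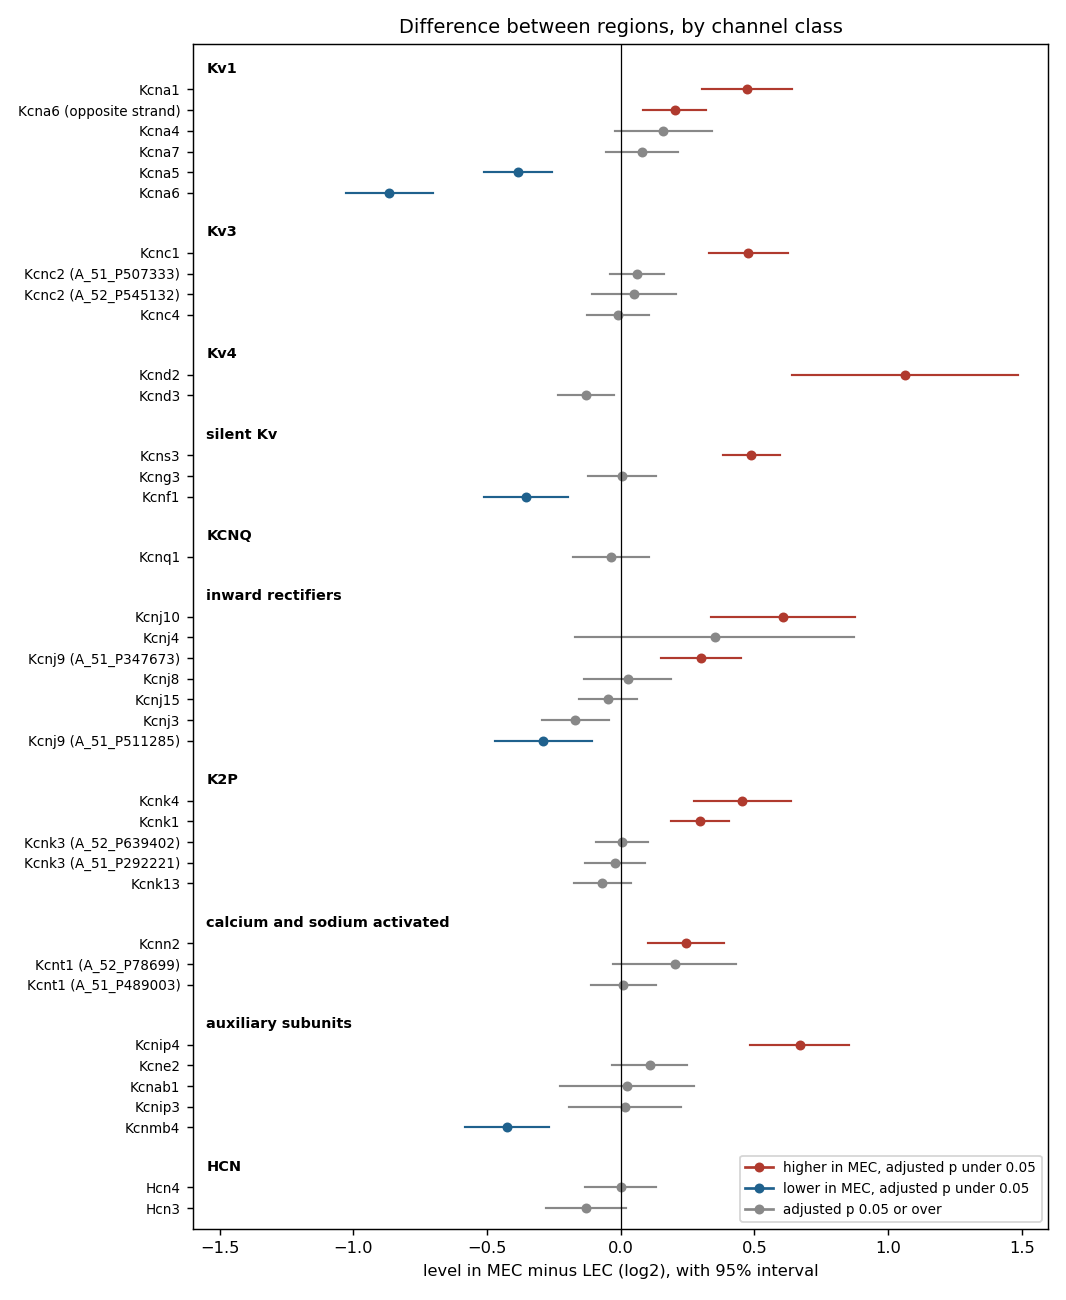
Difference in level between MEC and LEC (log2, x axis) with its 95% interval for 38 of the 41 tested probes, grouped by channel class. Red probes were higher and blue probes lower in MEC at an adjusted p under 0.05, and grey probes missed it. Kv1, silent Kv, inward rectifier and auxiliary genes have probes of both colours, and the 2 HCN probes plotted are grey. The red Kcna6 probe lies on the opposite strand. Red probes of Kcna1, Kcnk1, Kcnn2 and Kcnj9 (A_51_P347673) turn sign with other scalings.

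Inward rectifiers pass current most easily near rest; some answer to G proteins, and Kcnj10 is the potassium-clearing channel of astrocytes and oligodendrocytes. Kcnj10 read 7.09, 7.32 and 7.22 in MEC, against 6.70, 6.78 and 6.32 in LEC (mm8, chr1:174210506-174210565). The regions did not overlap, and the difference was 0.61 (SE 0.12, adjusted p = 0.0086), or 1.52-fold. With the 75th percentile it was 0.36 (adjusted p = 0.10) and without scaling 0.20 (adjusted p = 0.28). Since Kcnj10 is a glial gene, glial markers stand beside it. Of 5 tested oligodendrocyte markers 4 were higher in MEC, where 11.1% of all tested probes were. Among them were Mobp at 0.67, Mag at 0.42 and Cldn11 at 0.23, and Mbp was lower at −0.97. Mag turned sign with other scalings (−0.17 without any). Cldn11 passed the filter through MEC alone, where it is high, so its call is no support apart from those readings. The mean level of the 5 oligodendrocyte markers was 7.35 to 7.54 in the MEC pairs and 6.90 to 7.12 in the LEC pairs. Of 5 tested astrocyte markers 0 passed, and their mean level was 7.13 to 7.37 in MEC and 6.99 to 7.48 in LEC, while Gfap and Aqp4 were below the filter. The part of glial RNA in the Kcnj10 difference was not tested.

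Kcnj9 encodes a subunit of the G-protein-gated channels through which many neurotransmitters quiet neurons, and its probes disagreed. The probe on its RefSeq transcript (A_51_P511285) read 6.33, 6.35 and 6.22 in MEC, against 6.42, 6.68 and 6.68 in LEC (mm8, chr1:174158768-174158827). Its difference was −0.29 (SE 0.078, adjusted p = 0.030), and it passed in 10 of 17 alternatives. The probe on a cDNA of the same name (A_51_P347673) read 8.10, 8.22 and 7.97 in MEC, against 7.82, 7.78 and 7.78 in LEC (mm8, chr1:174157381-174157440). Its difference was 0.30 (SE 0.066, adjusted p = 0.013), which turned to −0.12 with the 75th percentile and −0.28 without scaling. The probes do not settle a direction for the gene. Its partner Kcnj3 did not pass, at −0.17 (adjusted p = 0.056), with 6.13, 6.11 and 5.99 in MEC against 6.20, 6.28 and 6.27 in LEC. Kcnj4, a strong rectifier of forebrain neurons, had the widest spread of the 41 probes between MEC pairs, with 9.26, 8.50 and 9.54 in MEC and 8.88, 8.66 and 8.70 in LEC (0.35, adjusted p = 0.30). The vessel channel gene Kcnj8 (0.026, adjusted p = 0.83) and Kcnj15 (−0.049, adjusted p = 0.50) did not pass.

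K2P channels leak potassium at all voltages, and some answer to stretch, lipids or acid. Kcnk4, which encodes the mechanosensitive TRAAK, read 7.24, 7.12 and 7.12 in MEC, against 6.56, 6.69 and 6.86 in LEC (mm8, chr19:6992743-6992802). The difference was 0.46 (SE 0.080, adjusted p = 0.0058), or 1.37-fold, and was 0.20 with the 75th percentile (adjusted p = 0.12) and 0.033 without scaling (adjusted p = 0.74). Kcnk1, the weak channel TWIK, read 6.76, 6.81 and 6.70 in MEC, against 6.47, 6.45 and 6.46 in LEC. Both genes thus kept the regions apart in every pair. The Kcnk1 difference was 0.30 (SE 0.047, adjusted p = 0.0040) and turned to −0.040 without scaling. The acid-sensitive Kcnk3 did not pass at either of its probes (−0.022 and 0.0050), nor did Kcnk13 (−0.068, adjusted p = 0.32).

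Calcium-activated channels shape the pauses between spikes. Kcnmb4 encodes the neuronal beta subunit of the BK channel, which slows its gating. It read 8.89, 8.80 and 8.98 in MEC, against 9.42, 9.30 and 9.22 in LEC (mm8, chr10:115822031-115822090). No pairs overlapped, and the difference was −0.43 (SE 0.068, adjusted p = 0.0042), 1.34-fold higher in LEC. It passed in 17 of 18 alternatives and was larger with the 75th percentile (−0.94) and without scaling (−1.10). The BK pore itself was below the filter. Kcnn2, an SK channel of the pause after a spike, read 6.57, 6.46 and 6.36 in MEC, against 6.24, 6.25 and 6.16 in LEC. The difference was 0.24 (SE 0.062, adjusted p = 0.024); it passed in 10 of 18 alternatives and was −0.0012 without scaling. The sodium-activated channel gene Kcnt1 did not pass at either of its probes (0.20, adjusted p = 0.18, and 0.0093, adjusted p = 0.92). Among other auxiliary genes, the Kv1 beta subunit Kcnab1 (0.023, adjusted p = 0.90) and Kcne2 (0.11, adjusted p = 0.24) did not pass.

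The HCN and KCNQ genes gave no called difference. Hcn3 read 6.67, 6.79 and 6.57 in MEC against 6.77, 6.77 and 6.87 in LEC (−0.13, adjusted p = 0.19), and passed as lower in MEC with the 75th percentile (−0.34, adjusted p = 0.014) and without scaling (−0.50, adjusted p = 0.0022). Hcn4, best known from the sinus node, did not differ beyond its error (0.00017, interval −0.13 to 0.13). Kcnq1 stood at −0.037 (adjusted p = 0.70).

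**Figure D3:**
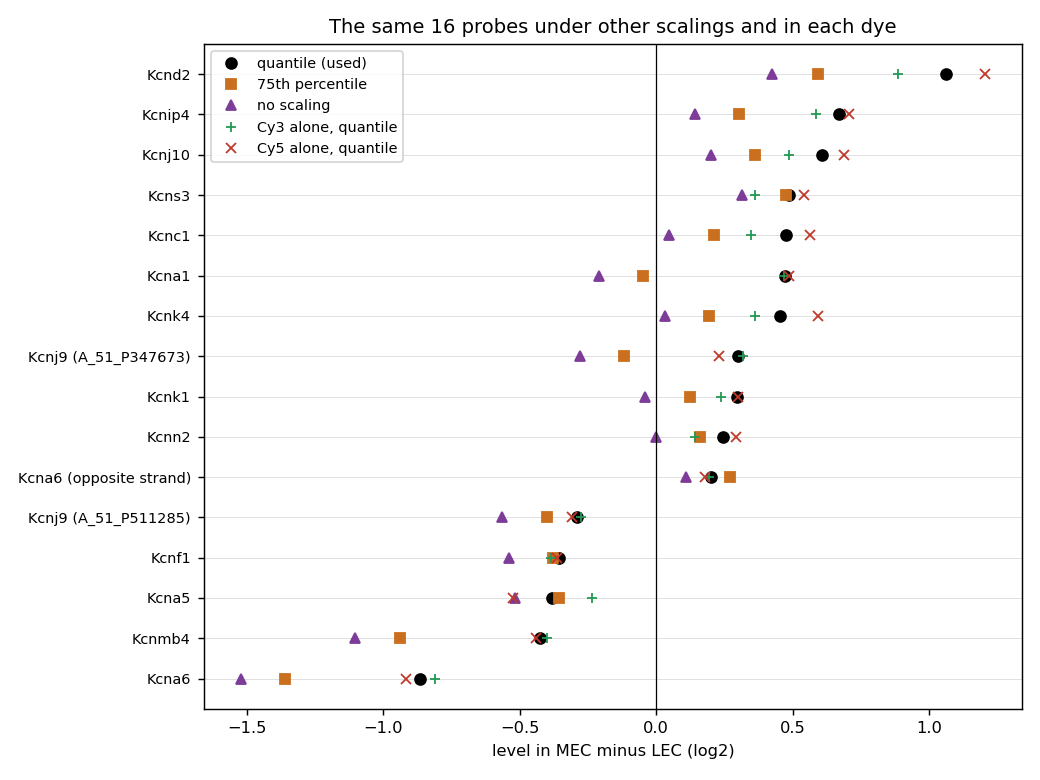
Difference in level between MEC and LEC (log2, x axis) of the 16 probes that passed, with quantile scaling (black circles), 75th percentile scaling (squares), no scaling (triangles), and quantile scaling of Cy3 alone (plus signs) or Cy5 alone (crosses). Both dyes gave the sign of the black circle for all 16 probes, while Kcna1, Kcnj9 (A_51_P347673), Kcnk1 and Kcnn2 cross 0 under other scalings. Kcnd2 ranges from 0.42 to 1.21 here and Kcna6 from −1.52 to −0.81.

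Genes that work beside these channels differed between the regions as well. Among 9 tested partner genes of potassium channels, 4 were higher and 0 lower in MEC, where 11.1% of all tested probes were higher and 13.2% lower. With the 75th percentile 1 was higher and 2 lower, and without scaling 0 were higher and 6 lower. Besides Dpp6 and Dpp10 these were Abcc8, the sulfonylurea receptor of ATP-sensitive channels, at 0.57 (adjusted p = 0.0020), and Lgi1, an epilepsy gene whose secreted product binds near Kv1 channels, at 0.18 (adjusted p = 0.028). These last 2 kept their sign under all 3 scalings. Of 5 sodium channel genes, Scn8a was higher at 0.27 (adjusted p = 0.046), turning to −0.21 with the 75th percentile, and the beta subunit Scn3b was lower at −0.71 (adjusted p = 0.010). Of 11 calcium channel genes 3 were higher and 2 lower. The auxiliary subunits Cacna2d3, at 1.19 (adjusted p = 3.03e-05), and Cacnb4, at 1.03 (adjusted p = 0.0002), passed with every scaling, as did Cacna2d2 at −0.34 and Cacnb3 at −0.31, while Cacna1g at 0.25 turned sign. The sodium-potassium pump restores the gradients that the channels spend, and of its 5 tested genes 3 were higher and 1 lower. Its beta subunit genes Atp1b2 and Atp1b3 stood at 0.24 and 0.29, and turned to −0.11 each without scaling.

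The second comparison set mutant against control within each pair. Of the 41 channel probes, 0 passed limma's adjusted p of 0.05 in MEC, in LEC, in their average or in the difference between the regions, and 0 of 12987 tested probes did (0% in each). At an unadjusted p under 0.05 the channel probes again numbered 0 in each of these contrasts, against 1.05% of all tested probes in MEC, 1.58% in LEC, 2.14% on average and 0.562% for the difference. The log2 ratios of mutant over control ran from −0.46 to 0.31 in MEC, with a median of 0.018, and from −0.19 to 0.49 in LEC, with a median of 0.0075. The median 95% interval, not adjusted for the number of probes, reached 0.20 to either side in a region and 0.14 for the average. The adjusted test is stricter than that interval and depends on each probe's own spread between pairs. The microglial lysozyme gene Lyzs stood at 1.79 in MEC and 1.77 in LEC and did not pass. Its ratios do not show what size a channel probe would need.

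With the table's sign for replicate 2, Kcnc1 had the smallest p in MEC and on average. Its MEC pairs read 0.78, 0.067 and 0.093 and its LEC pairs 0.59, 0.19 and −0.18. MEC pair 1 and LEC pair 1 lay well above the others. The mean was 0.31 (SE 0.18, unadjusted p = 0.13) in MEC and 0.26 (unadjusted p = 0.084) over both regions, with adjusted p near 1.00. With replicate 2 turned as labelled its unadjusted p was 0.21 in MEC and 0.26 on average, and other probes had smaller ones. Kcnd2, the pore with the largest difference between regions, read 0.027, −0.37 and 0.78 in MEC and 0.48 and 0.50 in LEC pairs 1 and 2. Its LEC mean of 0.49 (unadjusted p = 0.096) leaves out pair 3, and with the outlier mark ignored it was 0.13.

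The probes named by the smallest p of each contrast showed small ratios besides these. Kcnt1 had positive ratios in all 3 MEC pairs at A_51_P489003 (0.034, 0.27 and 0.080), where LEC pair 2 read −0.098. At A_52_P78699 its ratios were positive in all 3 LEC pairs (0.046, 0.12 and 0.085), while MEC pairs 2 and 3 read −0.0038 and −0.016. Kcnc2 was below 0 in all MEC pairs at A_51_P507333 (−0.054, −0.26 and −0.022), and Kcnf1 was above 0 (0.081, 0.00079 and 0.16). In MEC 9 of 41 channel probes had 1 sign in all 3 pairs, 7 of them above 0, where 14.1% of all probes did; in LEC 6 of 41 did, 4 above 0, where 17.3% of all probes did. In all 6 pairs 0 of the 41 had 1 sign, where 1.79% of all probes did. These counts rest on the sign of replicate 2. With the table's sign, the mean ratio of the tested microglial markers was 0.39 to 0.44 over the MEC pairs and 0.29 to 0.65 over the LEC pairs. It was above 0 in every pair, and turning replicate 2 would put that pair below 0 in both regions. Turned as labelled, 18 of the 41 had 1 sign in MEC, 13 of them above 0 (36.4% of all probes had 1 sign), and 15 in LEC, 8 above 0 (29.8%), and only Kcna1 had 1 sign in all 6 pairs (7.37% of all probes).

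Several channels that differed between the regions had mutant ratios on both sides of 0. Kcna1 read 0.96, −0.25 and 0.093 in MEC and 0.37, −0.28 and 0.64 in LEC. Kcna6 (A_52_P130787) read 0.076, −0.052 and 0.24 in MEC and −0.11, 0.31 and −0.058 in LEC. Both straddled 0 in either region. Kcnip4 read 0.090, −0.26 and 0.40 in MEC and 0.22, −0.034 and −0.31 in LEC, and Kcns3 0.11, −0.33 and 0.0033 in MEC and −0.20, 0.31 and −0.022 in LEC. For Kcnj10, a glial rectifier, MEC pairs stood at 0.34, −0.076 and 0.16, and its LEC pairs at 0.12, 0.26 and −0.16. The K2P channel gene Kcnk4 had −0.075, 0.50 and −0.30 in MEC and 0.0046, −0.38 and 0.24 in LEC. In each of these genes the pairs of both regions lay on both sides of 0 with the table's sign for replicate 2. Kcnj4 ranged from −1.70 to 1.08 in MEC and from −0.34 to 0.95 in LEC. Among the HCN genes, Hcn3 averaged 0.065 in MEC and −0.070 in LEC, and Hcn4 0.0097 in MEC and −0.085 in LEC. With replicate 2 turned as labelled, 0 channel probes passed either, with 7 of the 40 then tested at an unadjusted p under 0.05 in MEC and 5 in LEC, and a smallest adjusted p of 0.419 in MEC and 0.460 in LEC. Over all 13273 probes then tested, 1510 reached that p in MEC and 1272 in LEC. Kcna1 then stood at 0.43 in both regions (unadjusted p = 0.027 in MEC, 0.028 in LEC and 0.0056 on average). In MEC Kcnip4 stood at 0.25 (unadjusted p = 0.046) and Kcnk4 at −0.29 (unadjusted p = 0.019). Kcnmb4 stood at −0.23 in MEC and 0.23 in LEC (unadjusted p = 0.0031 in each). With the table's sign the MEC pairs of Kcnmb4 read −0.19, 0.25 and −0.26 and its LEC pairs 0.19, −0.18 and 0.32, so that pair 2 went against the other pairs in both regions.

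**Figure D4:**
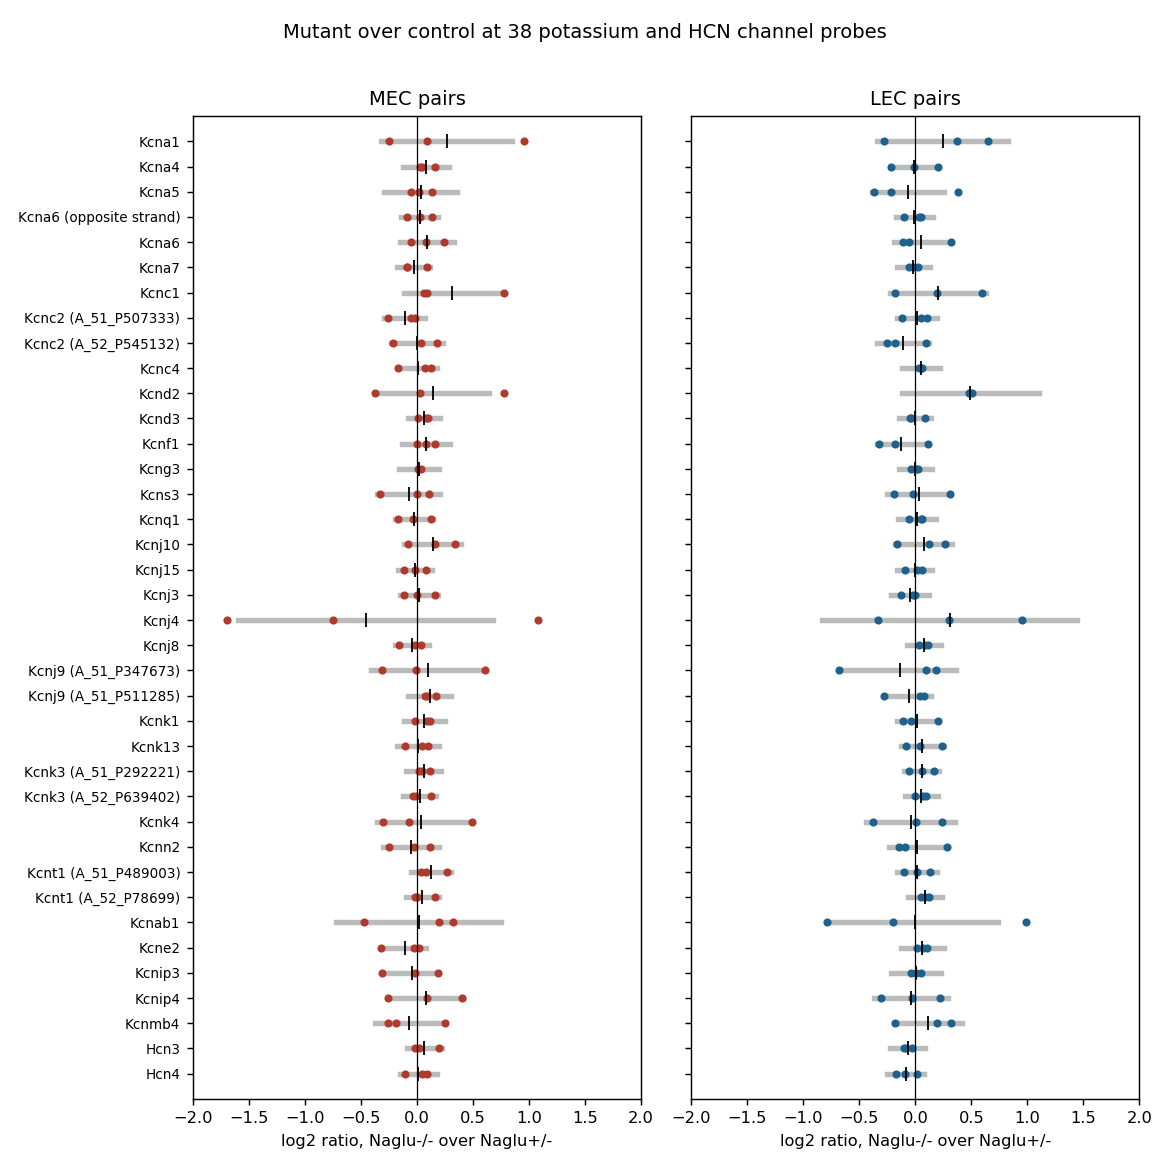
Log2 ratio of Naglu-/- over Naglu+/- (x axis) at 38 of the 41 tested channel probes in the MEC pairs (left, red) and the LEC pairs (right, blue). Points are pairs, the black tick is their mean and the grey bar its 95% interval. Every grey bar covers 0, and the widest range of pairs is at Kcnj4 in MEC (−1.70 to 1.08) and at Kcnab1 in LEC (−0.79 to 0.99).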

How the data were processed

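The authors' scanner files hold, per the file headers, mean spot intensity and local background intensity for each dye, processed intensity and log10 ratios (Cy5 over Cy3), made with Agilent Feature Extraction 9.5.1.1 (8.5.1.1 per the submitters' processing notes), with probe coordinates of build mm8. The authors' deposited value table holds log2 ratios, whose centring is not stated. Each of its columns matched 1 array over 9166 bright spots (correlation 0.995 to 0.999 in size, at most 0.657 with any other), which gave each array's sample and direction. The fits used limma 3.58.1 under R 4.3.3, with files read by data.table (version 1.17.8). Background was corrected by normexp (offset 50), dyes were balanced by loess and levels quantile-normalised. Spots marked as outliers were left out. Arrays of a pair were averaged. Limma's two-sided p-values were adjusted by Benjamini-Hochberg over 12987 probes; they measure the spread between 3 pairs per region. Gene names were matched to RefSeq by accession for 107 probes and by symbol for 23; 3 probes lie on the strand opposite to their gene, 1 of them tested. Named were all probes that passed, the smallest p of other classes, further HCN and Kv genes, and the mutant contrasts' smallest p. The members and lists were chosen with earlier results of these data known. The fits were tested on simulated data. The number of arrays limits precision. Values of some genes are not reported here: their probes count among those tested and are not plotted.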

Additional observations from a re-analysis of the deposited data

How the results depend on the processing

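Values are log2 differences or ratios unless they are counts. For the levels of named probes, 313 of 373 alternative values kept direction and side of the threshold, 41 lost the call, 2 gained it and 17 turned sign; of 291 mutant ratios 23 turned sign and 0 passed. Over all probes, 4976 passed with the 75th percentile and 9763 without scaling, against 3153. Without replicate 2 of both regions 904 did, and 8 channel probes. Leaving out 1 pair gave 1973 to 2883 probes (1973 without MEC replicate 1, 2020 without LEC replicate 2) and 13 to 15 channel probes. For the mutant ratio it gave 0 to 1 probe, the 1 being no channel probe and passing without LEC replicate 2. With the 75th percentile Kcna1 turned to −0.048, Kcnj9 (A_51_P347673) to −0.12 and Kcnq1 to 0.031. Without scaling Kcna1 was −0.21, Kcnj9 −0.28, Kcnk1 −0.040, Kcnn2 −0.0012, Hcn4 −0.15 and Kcnc2 −0.13 and −0.051. On processed signals Hcn4 was −0.070 and the Kcnc2 ratio in LEC −0.063; that ratio was −0.0075 with median centring and −0.067 in the authors' deposited table. Without replicate 2 of both regions the ratios were −0.0075 for Kcnc2 in LEC and 0.044 for Kcnf1 on average. With files and dyes as labelled Kcnt1 (A_51_P489003) was −0.051 in MEC, −0.081 in LEC and −0.066 on average, and Kcnc2 0.061 in MEC and 0.037 on average. With replicate 2 turned as labelled Kcnt1 was −0.051 in MEC, Kcnc2 0.061 in MEC, −0.023 in LEC and 0.019 on average, Kcnd2 −0.012 in LEC, and Kcnf1 0.086 in LEC and 0.083 on average. Leaving out 1 pair, levels ran from −0.031 to 0.045 for Hcn4, −0.012 to 0.11 for Kcnc2 (A_52_P545132) and −0.082 to 0.0045 for Kcnq1. Mutant ratios then ran from −0.031 to 0.077 for Kcnc2 in LEC, −0.17 to 0.40 for Kcnd2 in MEC, −0.087 to 0.024 for Kcnf1 on average, −0.041 to 0.072 for Kcnt1 (A_51_P489003) in LEC and −0.010 to 0.078 for its other probe in MEC. The cause of these shifts was not tested.

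The labels do not say whether same-numbered pairs of the regions came from the same mice, so the numbers were not taken as pairing. Correlations between same-numbered pairs were −0.060, 0.014 and −0.021 in level and −0.18, −0.0055 and −0.36 in mutant ratio. From 3 pairs per region these values cannot decide the question. With the replicate block 15 channel probes and 2783 probes in all passed for the level, and 0 for the mutant effect's difference. Keeping spots marked as outliers, a setting chosen after seeing the data, left 16 channel probes and 3000 in all. A scan-day block was not run because 0 of the 2 scan days hold both regions. Dim probes lie near the floor, where the offset compresses differences.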
